A study of Paspalum vaginatum with 72 samples.

Results

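Roots of the salt-sensitive Paspalum vaginatum accession USA17-26 were compared after 48 h under NaCl and without salt. The members were chosen by their labels alone: 3 RNA-seq libraries of salt-treated roots taken at 48 h and 3 libraries of non-stressed roots, 6 of the 72 libraries of the series. The series measured leaves and roots of USA17-26 and of the salt-tolerant accession USA17-18 in 24 groups of 3 libraries, at 5 times under salt (8 h, 12 h, 24 h, 48 h, 5 days) and without salt. The plants were 2 months old in the series description, whereas the study's methods describe younger plants raised in nutrient solution from stolons of plants of that age. The salt was 400 mM NaCl in the series description, but the methods describe daily steps ending at this concentration, so the sources differ on how much salt the roots were in at 48 h. The non-stressed libraries carry the time label 0, while the methods describe unsalted plants collected on day 5. No source used here gives the hour of the day at which tissue was collected.

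Paspalum vaginatum, seashore paspalum, is a turfgrass that grows on saline shores. Salt around a root lowers the water potential of the medium and brings Na+ ions into the tissue, and roots are known to answer with compatible solutes, protective hydrophilic proteins, altered water channels and altered ion transport, much of it under the hormone abscisic acid (ABA). The root is also the organ that takes up nitrate, phosphate, iron and silicon, each through dedicated membrane transporters.

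Values are FPKM, the sequenced fragments of a gene scaled for transcript length and library size. Differences were tested on log2(FPKM + 1) with limma over the 36 root libraries, on the 22194 genes that reached 1 FPKM in at least 3 of them, so that the fold changes of genes with low values come out too small. A differentially expressed gene (DEG) had a Benjamini-Hochberg adjusted p up to 0.05 over all tested genes and a log2 fold change of 1.5 or more, up or down. The labels do not say that the libraries of a group came from separate plants, although the methods speak of biological replicates of several plants each, and the p-values measure only the spread between these libraries. Gene names are the nearest Swiss-Prot protein given in the deposited table, which names 18886 of its 27743 genes after proteins of other species, and the roles given with the names are those known from such plants as rice, maize and Arabidopsis thaliana. Neighbouring genes of 1 name may share reads. No source used here names the genome build, and positions are as deposited.

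The number of reads per library is unknown. The depth relative to the median library was estimated from the smallest FPKM step of 156 low genes, taken as the worth of 1 read, and was 0.934 to 0.997 in the 48 h salt roots and 0.996 to 1.011 in the non-stressed roots. The 48 h salt libraries had 18626 to 19051 genes at 1 FPKM or more, and the non-stressed libraries 18859 to 19500. Replicates correlated across genes at r = 0.962 to 0.979 in the 48 h salt roots and 0.975 to 0.988 in the non-stressed roots. Non-stressed library 1 stood apart: 290 genes were under 25% of both other libraries there, against 15 and 12 genes in non-stressed libraries 2 and 3. Among the 48 h salt roots, library 1 had 233 such genes, library 2 had 42 and library 3 had 13, while library 3 had 97 genes above 4 times both others, against 81 and 29 in libraries 1 and 2.

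After 48 h of salt, 922 genes were higher (4.15% of those tested) and 1156 were lower (5.21%), 2078 DEGs in all. The list counts of this comparison given below are to be read beside these shares. The median log2 fold change of all tested genes was -0.01. Leaving out each library in turn gave 1925 to 2161 DEGs, and 2055 of the 2078 DEGs had libraries that did not overlap between the groups, as had 12873 of all tested genes (58.0%). The genes with the greatest rises included those named for LEA proteins, a dehydrin and a small heat shock protein, and the genes with the greatest falls those named for protease inhibitors, a blue copper protein and a germin-like protein, all of which were low in non-stressed library 1.

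Genes of protective proteins were among those with the greatest rises. The late embryogenesis abundant (LEA) protein group 3 gene emFS1.189 (chromosome 9, 44285361 to 44286834), of a family of hydrophilic proteins that accumulate in drying seeds, stood at 1953, 2732 and 1788 FPKM in 48 h salt roots, against 0.69, 5.7 and 1.87 FPKM in non-stressed roots. Its log2 fold change of 9.38 ± 0.72 (SE, limma adjusted p = 1.8e-10) was the greatest of all DEGs. The dehydrin gene DHN3, emFS9.217, another kind of LEA protein, had 105, 199 and 175 FPKM in 48 h salt roots, against 0, 0.06 and 0 FPKM in non-stressed roots, a log2 fold change of 7.25 ± 0.71 (SE, limma adjusted p = 1.1e-08). The groups were far apart for both genes, with little or no mRNA listed in any non-stressed library. LEA protein 31, emOS181.40, reached 213, 517 and 384 FPKM in 48 h salt roots, against 1.3, 1.39 and 2.12 FPKM in non-stressed roots (log2 fold change 7.08). The gene of the membrane protein PM19L, emOS109.69, named after a plasma membrane protein induced by ABA in wheat, was at 196, 170.2 and 157 FPKM in 48 h salt roots, against 0, 0 and 0.04 FPKM in non-stressed roots (log2 fold change 7.43). The hydrophobic protein RCI2A gene, emOS55.719, cold-induced in Arabidopsis, was at 238, 388 and 421 FPKM in 48 h salt roots, against 0.74, 0.54 and 0.11 FPKM in non-stressed roots (log2 fold change 7.89). A metallothionein-like gene, emFS24.155, whose product binds metal ions through cysteines, was at 799, 1461 and 1422 FPKM in 48 h salt roots, against 13.3, 20.4 and 9.38 FPKM in non-stressed roots. Every 48 h salt library of these genes was above every non-stressed library, which the rule for naming the greatest changes required of most of them.

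Within the ABA and dehydration list, 7 of 53 tested genes were higher and 5 lower, and the median log2 fold change was 0.31. The risen genes were LEA proteins, a dehydrin, the abscisic stress-ripening protein 1 gene emFS22.1208 and the protein kinase SAPK4 gene emFS4.383 (log2 fold change 1.59), and the fallen ones included ABA receptors. The receptor gene PYL5, emFS1.885, had 1.54, 0.93 and 0.74 FPKM in 48 h salt roots, against 30.5, 14.9 and 29.2 FPKM in non-stressed roots, a log2 fold change of -3.60 ± 0.30 (SE, limma adjusted p = 8.1e-10). PYL8, emFS26.414, had 28.7, 23.4 and 30.9 FPKM in 48 h salt roots, against 121, 122 and 116 FPKM in non-stressed roots. PYL4, emOS55.787, had 149, 110.4 and 97.6 FPKM in 48 h salt roots, against 481, 298 and 397 FPKM in non-stressed roots (log2 fold change -1.71). SAPK4 was under the fold threshold without 48 h library 2 (1.31), and both SAPK4 (1.47) and PYL4 (-1.42) were without both non-stressed library 1 and 48 h library 3. ABA receptors bind the hormone and then block protein phosphatases 2C, which otherwise hold the pathway off. Of the protein phosphatase 2C genes, 8 of 78 tested genes were higher and 5 lower, or 3 lower without non-stressed library 2, 48 h library 2 or 48 h library 3. PP2C75, emFS5.244, rose most, with 31.4, 47.6 and 35.3 FPKM in 48 h salt roots, against 0.14, 0.78 and 0.51 FPKM in non-stressed roots (log2 fold change 4.73). PP2C50, emFS1.165, had 78.0, 115 and 111 FPKM in 48 h salt roots and 19.5, 23.7 and 20.7 FPKM in non-stressed roots, while PP2C32, emOS55.754, fell to 9.38, 12.5 and 13.5 FPKM in 48 h salt roots, against 56.5, 165 and 82.2 FPKM in non-stressed roots. The ABA 8'-hydroxylase 3 gene emOS99.208, for the enzyme that breaks ABA down, was at 0.67, 0.72 and 0.11 FPKM in 48 h salt roots, against 3.74, 39.9 and 35.4 FPKM in non-stressed roots, low also in non-stressed library 1.

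**Figure D1:**
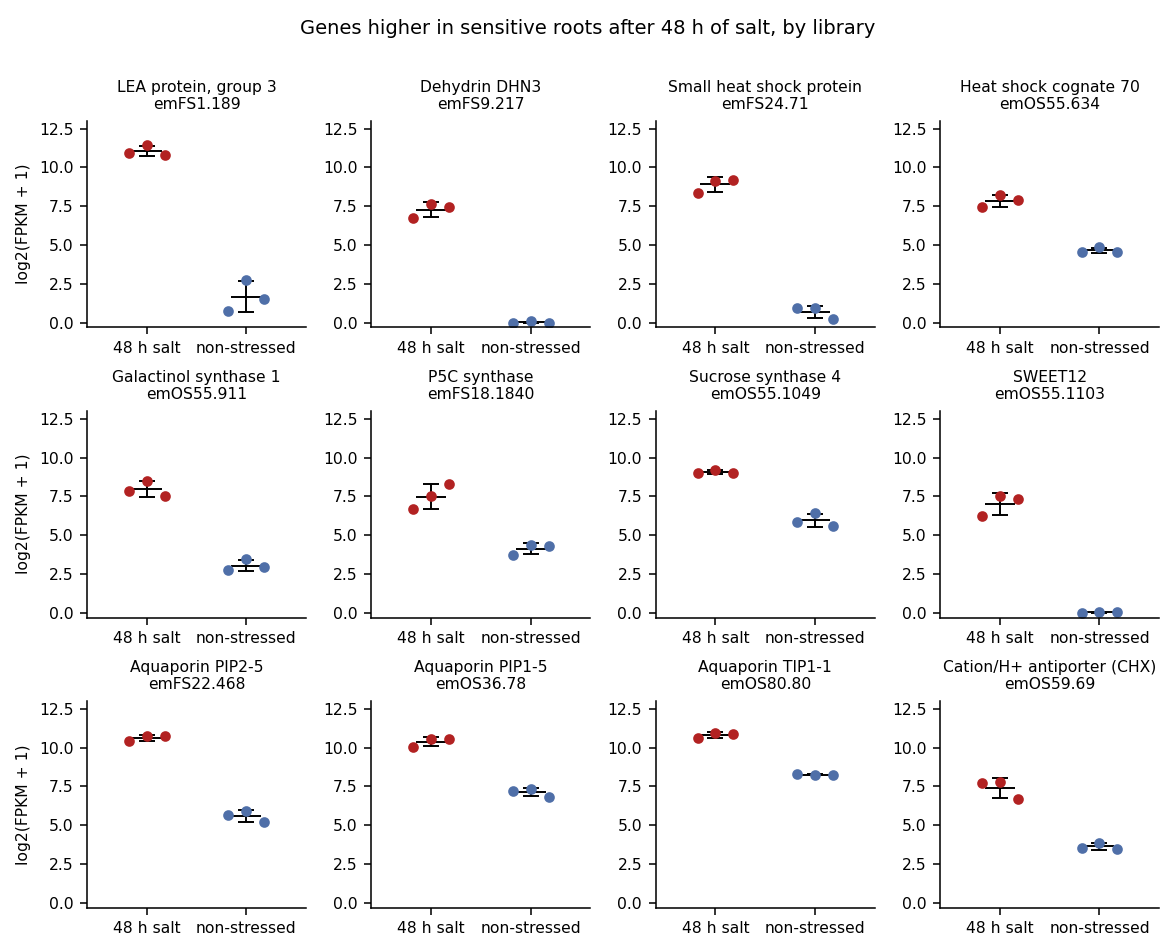
Expression of 12 genes that rose in sensitive roots. Each panel shows the log2(FPKM + 1) of the 3 libraries of 48 h salt roots (left, red) and of non-stressed roots (right, blue), with the mean as a horizontal line and the SD over 3 libraries as bars. The 12 were chosen from the DEGs. No panel has overlapping groups, as is so for 58.0% of all tested genes, and the LEA group 3 gene differs most, by a log2 fold change of 9.38.

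Of the heat shock and protein-folding genes, 14 of 98 tested genes were higher and 2 lower (14.3% and 2.04% of the list), with a median of 0.17. The small heat shock protein gene emFS24.71 (chromosome 3, 5378627 to 5379493), a 16.9 kDa class I chaperone that keeps damaged proteins from clumping, had 332, 555 and 596 FPKM in 48 h salt roots, against 0.91, 0.94 and 0.2 FPKM in non-stressed roots, a log2 fold change of 8.19 ± 0.62 (SE, limma adjusted p = 1.3e-10). Its neighbour of the same name, emFS24.70, had 181, 247 and 248 FPKM in 48 h salt roots, against 1.04, 2.82 and 1.1 FPKM in non-stressed roots. The class III 18.6 kDa gene emOS36.358 had 70.8, 105 and 92.4 FPKM in 48 h salt roots, against 1.34, 1.67 and 1.33 FPKM in non-stressed roots (log2 fold change 5.19). The heat shock 70 kDa protein 8 gene emOS55.263, for an ATP-driven chaperone, was at 26.7, 30.9 and 39.7 FPKM in 48 h salt roots, against 0.11, 0.02 and 0.02 FPKM in non-stressed roots (log2 fold change 4.98). Calreticulin, emOS99.236, a chaperone of the endoplasmic reticulum, and the 18.8 kDa class V gene emOS91.1155 were the 2 that fell, at log2 fold changes of -2.56 and -2.02. A gene that carries the name of the 60S ribosomal protein L10, emOS55.1000 (chromosome 1, 45777340 to 45778852), was at 645, 520.2 and 457 FPKM in 48 h salt roots, against 0.62, 0.13 and 0.36 FPKM in non-stressed roots, a log2 fold change of 8.63 ± 0.54 (SE, limma adjusted p = 3.2e-12). It was the 1 gene of 195 in the cytosolic ribosomal protein list that rose, and 1 other fell. There were 2 that rose without 48 h library 3 and 2 that fell without non-stressed library 2. The remaining differences in this list were small, with a median of 0.25 beside -0.01 over all genes, and 122 of its genes had all 48 h salt libraries above all non-stressed ones (28.0% over all tested genes), against 10 with all below (30.0% over all tested genes).

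Genes for the making of solutes changed in both directions. Of the 6 proline genes tested, 2 rose and 1 fell. Delta-1-pyrroline-5-carboxylate synthase, emFS18.1840, the first enzyme from glutamate to proline, had 101, 181 and 308 FPKM in 48 h salt roots, against 12.2, 19.6 and 18.3 FPKM in non-stressed roots, a log2 fold change of 3.36 ± 0.44 (SE, limma adjusted p = 1.3e-06). Ornithine aminotransferase, emOS43.53, which feeds the same pathway from ornithine, had 61.9, 49.5 and 46.1 FPKM in 48 h salt roots, against 8.26, 10.2 and 10.1 FPKM in non-stressed roots (log2 fold change 2.34). Proline dehydrogenase 2, emOS55.1752, the first step of proline breakdown, fell to 14.8, 8.23 and 9.33 FPKM in 48 h salt roots, against 43.4, 33.6 and 41.6 FPKM in non-stressed roots (log2 fold change -1.82, and -1.67 with an adjusted p of 0.0798 without both non-stressed library 1 and 48 h library 3, a setting chosen after the data were seen). Among the other compatible-solute genes, 8 of 49 tested genes were higher and 7 lower, with a median of 0.04. Galactinol synthase 1, emOS55.911, which makes the donor for raffinose sugars, had 229, 365 and 182 FPKM in 48 h salt roots, against 5.64, 10.1 and 6.65 FPKM in non-stressed roots, a log2 fold change of 4.91 ± 0.68 (SE, limma adjusted p = 2.7e-06). The galactinol-sucrose galactosyltransferase (raffinose synthase) emFS24.314 had 47.6, 67.3 and 38.9 FPKM in 48 h salt roots, against 3.57, 3.22 and 3.02 FPKM in non-stressed roots, and the probable one emOS56.152 had 282, 298 and 973 FPKM in 48 h salt roots, against 35.6, 51.1 and 43.0 FPKM in non-stressed roots. Inositol-3-phosphate synthase, emOS55.55, the entry to inositol, had 55.5, 60.8 and 51.8 FPKM in 48 h salt roots, against 8.54, 8.05 and 7.06 FPKM in non-stressed roots (log2 fold change 2.68). Of the trehalose-phosphate phosphatases, which make trehalose, emOS86.164 was at 7.33, 1.7 and 3.46 FPKM in 48 h salt roots, against 31.1, 105 and 45.8 FPKM in non-stressed roots, and emOS174.578 at 14.4, 2.51 and 5.05 FPKM in 48 h salt roots, against 29.2, 34.5 and 38.2 FPKM in non-stressed roots.

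Of the sucrose and sugar transport genes, 15 of 71 tested genes were higher and 7 lower (21.1% and 9.86% of the list), and 4 fell without both non-stressed library 1 and 48 h library 3. SWEET12, emOS55.1103 (chromosome 1, 45087887 to 45090036), a pore that lets sucrose out of cells, had 73.2, 182 and 163 FPKM in 48 h salt roots, against 0, 0.04 and 0.05 FPKM in non-stressed roots, a log2 fold change of 6.99 ± 0.45 (SE, limma adjusted p = 6.6e-12). The sugar transport protein MST4 gene, emOS55.262, a monosaccharide importer in rice, had 57.5, 68.2 and 48.3 FPKM in 48 h salt roots, against 2.37, 4.98 and 2.66 FPKM in non-stressed roots (log2 fold change 3.80). The monosaccharide-sensing protein 2 gene emOS94.135, for a transporter of the vacuole membrane, had 9.84, 14.6 and 17.9 FPKM in 48 h salt roots, against 0.08, 0.18 and 0.16 FPKM in non-stressed roots. Sucrose synthase 4, which cleaves sucrose for use in the cell, is named for 3 adjacent genes on chromosome 1, emOS55.1049, emOS55.1050 and emOS55.1051. The 3 genes rose alike, at log2 fold changes of 3.12, 3.10 and 3.00, and cannot be taken as independent. The first of them had 509, 579 and 520.4 FPKM in 48 h salt roots, against 55.4, 85.4 and 47.4 FPKM in non-stressed roots. Sucrose synthase 1, emFS4.1873, was instead lower, at 281, 206 and 229.6 FPKM in 48 h salt roots, against 873, 745 and 901 FPKM in non-stressed roots (log2 fold change -1.82, or -1.77 with an adjusted p of 0.0516 without both non-stressed library 1 and 48 h library 3). The monosaccharide importer MST1, emOS144.288, fell to 7.1, 5.38 and 5.91 FPKM in 48 h salt roots, against 67.1, 58.4 and 55.1 FPKM in non-stressed roots.

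Water channels split by subfamily. Of 35 aquaporins tested, 9 rose (25.7%) and 6 fell (17.1%), and all 9 risen ones carry names of the plasma membrane (PIP) or tonoplast (TIP) subfamilies, which carry water, whereas all 6 fallen ones carry names of the NIP subfamily, which carries small solutes such as silicic and boric acid. PIP2-5, emFS22.468 (chromosome 6, 9921865 to 9924773), had 1364, 1739.9 and 1704 FPKM in 48 h salt roots, against 49.4, 59.9 and 36.1 FPKM in non-stressed roots, a log2 fold change of 5.04 ± 0.44 (SE, limma adjusted p = 1.6e-09). PIP1-5, emOS36.78, had 1065, 1498 and 1498 FPKM in 48 h salt roots, against 148, 158 and 113 FPKM in non-stressed roots (log2 fold change 3.26). PIP1-6, emOS49.372, had 63.8, 153 and 123 FPKM in 48 h salt roots, against 6.02, 6.9 and 6.57 FPKM in non-stressed roots (log2 fold change 3.84). The tonoplast channel TIP1-1, emOS80.80, had 1548, 2006 and 1885 FPKM in 48 h salt roots, against 314, 301 and 301 FPKM in non-stressed roots, the highest FPKM of the 9 in each 48 h salt library. NIP2-1, the channel that brings silicic acid into rice roots, is named for 2 genes. The first, emOS36.581, fell to 7.3, 18.5 and 13.5 FPKM in 48 h salt roots, against 335, 234 and 258 FPKM in non-stressed roots, a log2 fold change of -4.36 ± 0.53 (SE, limma adjusted p = 4.1e-07). The second, emOS174.12, was at 2.26, 8.55 and 5.33 FPKM in 48 h salt roots, against 121, 87.8 and 91.1 FPKM in non-stressed roots (log2 fold change -4.10). The silicon exporter LSI3, emOS55.1729, was at 36.9, 11.5 and 16.2 FPKM in 48 h salt roots, against 279.7, 311 and 242 FPKM in non-stressed roots (log2 fold change -3.78). LSI2 exports silicon towards the root centre in rice. Of 3 genes with its name, emOS124.262 was at 40.6, 153 and 126 FPKM in 48 h salt roots, against 469, 352 and 317 FPKM in non-stressed roots (log2 fold change -2.01). Its call was lost without non-stressed library 1 (adjusted p = 0.0817) or 2 (0.0525), without 48 h library 1 (a log2 fold change of -1.43, adjusted p = 0.157), and without both non-stressed library 1 and 48 h library 3 (0.0908). The adjacent emOS80.90 and emOS80.91, picked after their values were seen, rose by log2 fold changes of 1.58 and 1.54. Both were under the fold threshold without non-stressed library 3 (1.48 and 1.45) or 48 h library 2 (1.47 and 1.45), and emOS80.90 also without 48 h library 3 (1.49).

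Among Na+, K+ and H+ transport genes, 8 of 119 tested genes were higher and 8 lower, with a median of 0.17. The cation/H+ antiporter 19 gene emOS59.69 had 206, 222 and 101 FPKM in 48 h salt roots, against 10.6, 13.8 and 10.2 FPKM in non-stressed roots, a log2 fold change of 3.75 ± 0.62 (SE, limma adjusted p = 2.8e-05). The outward potassium channel KOR1, named for the neighbours emOS49.192 and emOS49.193, rose by log2 fold changes of 1.97 and 1.88. The gene emOS49.193 had 476, 563 and 384 FPKM in 48 h salt roots, against 146, 109 and 127 FPKM in non-stressed roots. The plasma membrane H+-ATPase emOS99.1241, the pump that energises ion transport, had 84.8, 105 and 111 FPKM in 48 h salt roots, against 15.1, 22.8 and 14.9 FPKM in non-stressed roots, while another gene of that name, emOS124.302, had 6.86, 9.39 and 7.21 FPKM in 48 h salt roots, against 19.9, 81.1 and 65.2 FPKM in non-stressed roots, low also in non-stressed library 1. The fallen genes of the list included transporters that take up potassium. Potassium transporter 1, emFS22.1351, of the high-affinity kind, had 25.9, 68.9 and 36.6 FPKM in 48 h salt roots, against 314, 256 and 311 FPKM in non-stressed roots, a log2 fold change of -2.83 ± 0.34 (SE, limma adjusted p = 3.3e-07). The inward channel AKT1, emFS18.596, had 51.9, 48.3 and 41.7 FPKM in 48 h salt roots, against 232, 173 and 238 FPKM in non-stressed roots (log2 fold change -2.15). HKT2, emFS4.55, of a family that moves Na+ and K+, was at 0.52, 0.77 and 1.7 FPKM in 48 h salt roots, against 4.89, 5.19 and 4.36 FPKM in non-stressed roots (log2 fold change -1.58, or -1.41 without 48 h library 1, under the fold threshold). Calcineurin B-like protein 7, emOS79.1388, a calcium sensor that works with CBL-interacting kinases on such transporters, was at 2.0, 1.39 and 1.0 FPKM in 48 h salt roots, against 11.3, 8.01 and 11.7 FPKM in non-stressed roots.

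Nitrogen and phosphate lists had more falls than rises. In the nitrogen list, 11 of 101 tested genes were higher and 23 lower (10.9% and 22.8%), with a median of -0.45. High-affinity nitrate transporter 2.2, emOS79.107 (chromosome 4, 47302249 to 47304221), fell to 48.7, 22.3 and 7.25 FPKM in 48 h salt roots, against 559, 284 and 479.8 FPKM in non-stressed roots, a log2 fold change of -4.32 ± 0.55 (SE, limma adjusted p = 6.8e-07). Its neighbour emOS79.101 was at 57.5, 17.4 and 7.23 FPKM in 48 h salt roots, against 464, 230.0 and 405 FPKM in non-stressed roots. The transporter 2.3, emFS18.927, was at 57.3, 411 and 154 FPKM in 48 h salt roots, against 1797, 1028 and 1466 FPKM in non-stressed roots (log2 fold change -3.17), with library 2 well above the other salt libraries. NPF6.3, emOS55.1766, which in Arabidopsis both carries and senses nitrate, was at 19.4, 6.62 and 13.1 FPKM in 48 h salt roots, against 164, 180.2 and 159 FPKM in non-stressed roots (log2 fold change -3.70). Glutamine synthetases, which bind ammonium into glutamine, changed in opposite ways: the chloroplastic emFS6.255 had 82.8, 35.9 and 19.4 FPKM in 48 h salt roots, against 569, 368 and 556 FPKM in non-stressed roots (log2 fold change -3.62), and the root isozyme 2 gene emOS99.1097 had 25.2, 8.18 and 15.1 FPKM in 48 h salt roots, against 0.56, 0.38 and 0.28 FPKM in non-stressed roots (log2 fold change 3.49). Within the risen genes, NPF7.3, emOS174.240, which loads nitrate into the xylem in Arabidopsis, had 104, 38.1 and 37.3 FPKM in 48 h salt roots, against 3.86, 7.57 and 4.41 FPKM in non-stressed roots, and NPF6.4, emOS144.241, had 116, 100.2 and 162 FPKM in 48 h salt roots, against 13.2, 22.4 and 14.2 FPKM in non-stressed roots.

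In the phosphate list, 3 of 42 tested genes were higher and 13 lower (7.14% and 31%), with a median of -0.75. The probable phosphate transporter 1-9, emOS103.22, had 1.13, 2.91 and 3.32 FPKM in 48 h salt roots, against 61.5, 36.4 and 55.5 FPKM in non-stressed roots, a log2 fold change of -3.95 ± 0.39 (SE, limma adjusted p = 1.6e-08). SPX5, emOS154.41, of a family that senses phosphate through inositol phosphates, had 31.4, 38.6 and 31.0 FPKM in 48 h salt roots, against 308, 235 and 293 FPKM in non-stressed roots (log2 fold change -3.01). The transporter 1-2, emOS130.230, was at 132, 15.2 and 40.4 FPKM in 48 h salt roots, against 363, 228 and 546 FPKM in non-stressed roots, with 48 h library 1 close to the lowest non-stressed library. Among iron and manganese genes, 3 of 46 tested genes were higher and 5 lower, and their median of 0.07 was near that of all genes. IRO2, emFS4.942 (chromosome 3, 45440731 to 45445940), in rice the transcription factor that turns on iron uptake under deficiency, fell to 203, 202 and 84.2 FPKM in 48 h salt roots, against 2784, 2261 and 2313 FPKM in non-stressed roots, a log2 fold change of -4.00 ± 0.50 (SE, limma adjusted p = 5.4e-07). Ferritin-1, emOS113.58, the iron store of plastids, rose to 209.9, 293 and 407 FPKM in 48 h salt roots, against 16.9, 27.1 and 18.2 FPKM in non-stressed roots (log2 fold change 3.78). The iron transporter IRT2, emOS99.1341, was at 1.31, 0 and 0.29 FPKM in 48 h salt roots, against 11.5, 6.95 and 6.52 FPKM in non-stressed roots. Amino acid transporters changed in both directions, 6 up and 4 down of 48, from the gene AVT1A, of a vacuolar family, emOS36.320, at 19.4, 19.5 and 24.6 FPKM in 48 h salt roots, against 0.09, 0.12 and 0.09 FPKM in non-stressed roots, to the amino acid permease 5, emFS4.437, at 3.19, 0.74 and 1.04 FPKM in 48 h salt roots, against 15.1, 20.9 and 15.9 FPKM in non-stressed roots.

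**Figure D2:**
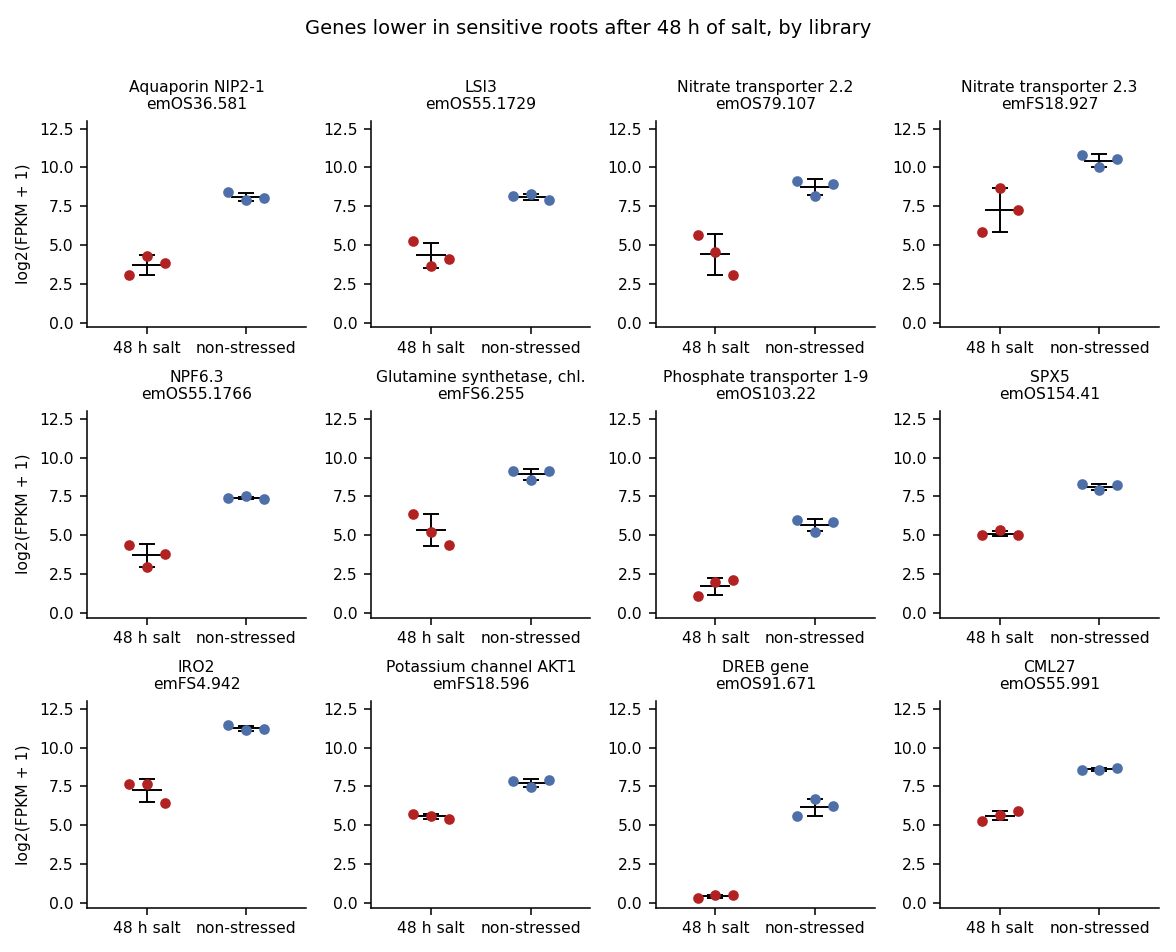
Expression of 12 genes that fell in sensitive roots. Each panel shows the log2(FPKM + 1) of the 3 libraries of 48 h salt roots (left, red) and of non-stressed roots (right, blue), with the mean as a horizontal line and the SD over 3 libraries as bars. The 12 were chosen from the DEGs. All have groups that do not overlap, as have 58.0% of all tested genes, with log2 fold changes from -5.73 for the DREB gene emOS91.671 to -2.15 for AKT1.

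Of 79 calcium sensor genes, 0 rose and 15 fell (19%, against 5.21% of all genes), with a median of -0.45. All 48 h salt libraries were above all non-stressed ones at 16 of the 79 (28.0% over all tested genes). They were below them at 42 (30.0% over all tested genes). Calmodulin-like proteins bind calcium and pass the signal to other proteins. CML27, emOS55.991, had 38.6, 49.9 and 58.7 FPKM in 48 h salt roots, against 372, 379 and 411 FPKM in non-stressed roots, a log2 fold change of -2.97 ± 0.45 (SE, limma adjusted p = 9.2e-06). CML45, emOS91.1830, had 8.66, 10.1 and 8.95 FPKM in 48 h salt roots, against 55.2, 77.5 and 68.9 FPKM in non-stressed roots. CML31, emFS4.956, had 19.6, 20.4 and 28.6 FPKM in 48 h salt roots, against 113, 164 and 184 FPKM in non-stressed roots. With single libraries left out, 13 to 16 genes of the list fell and 0 rose.

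Transcription factors were counted by family. Among WRKY genes, best known from defence, 1 of 79 tested genes were higher and 11 lower (13.9% lower), with a median of -0.22. WRKY53, emOS86.56, had 3.22, 3.6 and 5.96 FPKM in 48 h salt roots, against 40.1, 94.2 and 65.5 FPKM in non-stressed roots, a log2 fold change of -3.64 ± 0.52 (SE, limma adjusted p = 4.6e-06). WRKY70, emOS174.682, had 10.7, 17.4 and 7.83 FPKM in 48 h salt roots, against 72.6, 91.7 and 88.8 FPKM in non-stressed roots. Among ERF and DREB genes, which answer to ethylene, cold and drought, 5 of 102 tested genes were higher and 15 lower, with a median of -0.4. Of these, 5 DREB genes lie next to each other on chromosome 2, emOS91.668 to emOS91.672, and all 5 fell. Of the 5, emOS91.668 had 0 in all 3 libraries in 48 h salt roots, against 0.45, 5.78 and 1.65 FPKM in non-stressed roots (log2 fold change -1.57), and -0.97 with an adjusted p of 0.0902 without non-stressed library 2. The strongest, emOS91.671 (chromosome 2, 9748343 to 9749501), was at 0.26, 0.4 and 0.41 FPKM in 48 h salt roots, against 47.3, 101 and 75.1 FPKM in non-stressed roots, a log2 fold change of -5.73 ± 0.56 (SE, limma adjusted p = 1e-08). Its neighbour emOS91.670 was at 2.8, 4.74 and 6.11 FPKM in 48 h salt roots, against 88.0, 220.2 and 149 FPKM in non-stressed roots. Among NAC genes, many of them induced by ABA and drought in rice, 9 of 71 tested genes were higher and 2 lower (12.7% higher), with a median of 0.41. NAM-B1, emOS101.35, had 272, 198 and 209 FPKM in 48 h salt roots, against 23.5, 19.0 and 27.9 FPKM in non-stressed roots, a log2 fold change of 3.22 ± 0.36 (SE, limma adjusted p = 1.2e-07). NAC48, emOS81.62, had 89.8, 70.2 and 55.0 FPKM in 48 h salt roots, against 9.23, 10.6 and 7.18 FPKM in non-stressed roots. Among MYB genes, 10 of 108 tested genes were higher and 4 lower, but 6 rose without non-stressed library 3 and 7 fell without 48 h library 1. MYB80, emFS22.803, had 16.9, 25.3 and 24.7 FPKM in 48 h salt roots, against 1.22, 2.07 and 1.11 FPKM in non-stressed roots (log2 fold change 3.24). The phosphate-response family member PHL5, emFS6.295, had 10.9, 7.81 and 4.76 FPKM in 48 h salt roots, against 94.5, 151 and 146 FPKM in non-stressed roots (log2 fold change -3.93). The homeobox gene HOX24, emOS174.653, induced by drought in rice, was at 41.0, 81.7 and 84.7 FPKM in 48 h salt roots, against 0.35, 1.8 and 0.37 FPKM in non-stressed roots, a log2 fold change of 5.27 ± 0.50 (SE, limma adjusted p = 5.9e-09).

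Hormone and growth genes were counted by list, beside 4.15% higher and 5.21% lower over all genes. Of the auxin genes, 3 of 102 tested genes were higher and 6 lower (2.94% and 5.88%), and all 6 that fell belong to the SAUR family of short-lived, auxin-responsive proteins. Without 48 h library 2, 1 auxin gene rose. SAUR40, emOS99.637 (chromosome 1, 4269079 to 4269664), fell to 42.8, 25.6 and 25.3 FPKM in 48 h salt roots, against 683, 396 and 688 FPKM in non-stressed roots, a log2 fold change of -4.19 ± 0.41 (SE, limma adjusted p = 1.2e-08). In jasmonate and ethylene synthesis, 2 of 60 tested genes were higher and 3 lower (3.33% and 5%), shares below those over all genes. The 3 that fell make ethylene. Without non-stressed library 1 or 3 or 48 h library 1, 1 gene of this list rose. The ACC synthase gene emFS26.308, for the step that limits ethylene synthesis, was at 1.17, 0 and 0.34 FPKM in 48 h salt roots, against 17.0, 10.9 and 16.0 FPKM in non-stressed roots (log2 fold change -3.43). Cell division had 0 higher and 4 lower of 97 tested (4.12% lower, below the share over all genes). Among the fallen was Cyclin-D5-1, emOS43.150, at 3.38, 2.73 and 1.87 FPKM in 48 h salt roots, against 12.2, 11.9 and 12.1 FPKM in non-stressed roots. Cellulose synthesis had 0 higher and 3 lower of 30 (10%), among them the cellulose synthase-like D4 gene emFS12.164, of a group that acts in root hairs in other plants, at 0.19, 0.48 and 0.9 FPKM in 48 h salt roots, against 7.46, 5.41 and 6.17 FPKM in non-stressed roots. Among wall-loosening genes, 3 of 114 tested genes were higher and 4 lower, shares below those over all genes, and 2 fell without 48 h library 2. The endodermis regulator SCARECROW, emOS113.212, was at 0.82, 1.18 and 1.24 FPKM in 48 h salt roots, against 6.84, 5.59 and 5.16 FPKM in non-stressed roots (log2 fold change -1.72).

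Genes of hydrogen peroxide metabolism were counted by list, beside 4.15% higher and 5.21% lower over all genes. Of the NADPH oxidases, which make superoxide outside the cell, 2 of 11 rose (18.2%) and 0 fell, and 0 rose without both non-stressed library 1 and 48 h library 3. They lie side by side, emFS18.1751 and emFS18.1752, and emFS18.1751 had 24.9, 21.0 and 33.5 FPKM in 48 h salt roots, against 4.07, 10.7 and 5.3 FPKM in non-stressed roots (log2 fold change 1.91, or 1.48 without both non-stressed library 1 and 48 h library 3, under the fold threshold, as was emFS18.1752 at 1.44). Of 35 antioxidant enzyme genes, 2 rose and 1 fell, shares of 5.71% and 2.86%. Cytosolic ascorbate peroxidase 1, emOS55.711, which removes hydrogen peroxide with ascorbate, had 433, 713 and 831 FPKM in 48 h salt roots, against 75.8, 119 and 85.7 FPKM in non-stressed roots, a log2 fold change of 2.78 ± 0.40 (SE, limma adjusted p = 4.3e-06). Of the class III peroxidases, secreted enzymes of the cell wall, 7 of 76 tested genes were higher and 3 lower (9.21% and 3.95%). Of these, 4 rose without non-stressed library 1 or 3 or without 48 h library 3, and 3 rose and 6 fell without both non-stressed library 1 and 48 h library 3. SPC4, emFS15.17, a cationic peroxidase, had 76.3, 121 and 178 FPKM in 48 h salt roots, against 8.6, 11.3 and 10.2 FPKM in non-stressed roots (log2 fold change 3.44). Glutathione S-transferases, 5 up and 5 down of 56, ranged from the GSTU19 gene emOS43.52, at 0.18, 0.11 and 0 FPKM in 48 h salt roots, against 4.45, 100.5 and 90.1 FPKM in non-stressed roots, to the gene emFS18.851, at 33.2, 59.3 and 75.8 FPKM in 48 h salt roots, against 6.63, 7.19 and 7.34 FPKM in non-stressed roots. Without non-stressed library 1 or 48 h library 2, 3 of them rose. Without both non-stressed library 1 and 48 h library 3, 3 fell. In the lipid list, 4 of 47 tested genes were higher and 1 lower, and the adjacent genes emOS169.146 and emOS169.147, both named for digalactosyldiacylglycerol synthase 1 of plastid membranes, rose by log2 fold changes of 2.37 and 2.42. The first had 94.8, 107 and 120.2 FPKM in 48 h salt roots, against 17.5, 20.4 and 21.8 FPKM in non-stressed roots. The list had 2 higher genes without non-stressed library 1 or 48 h library 1, and 2 lower without non-stressed library 2 or 3 or 48 h library 1.

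**Figure D3:**
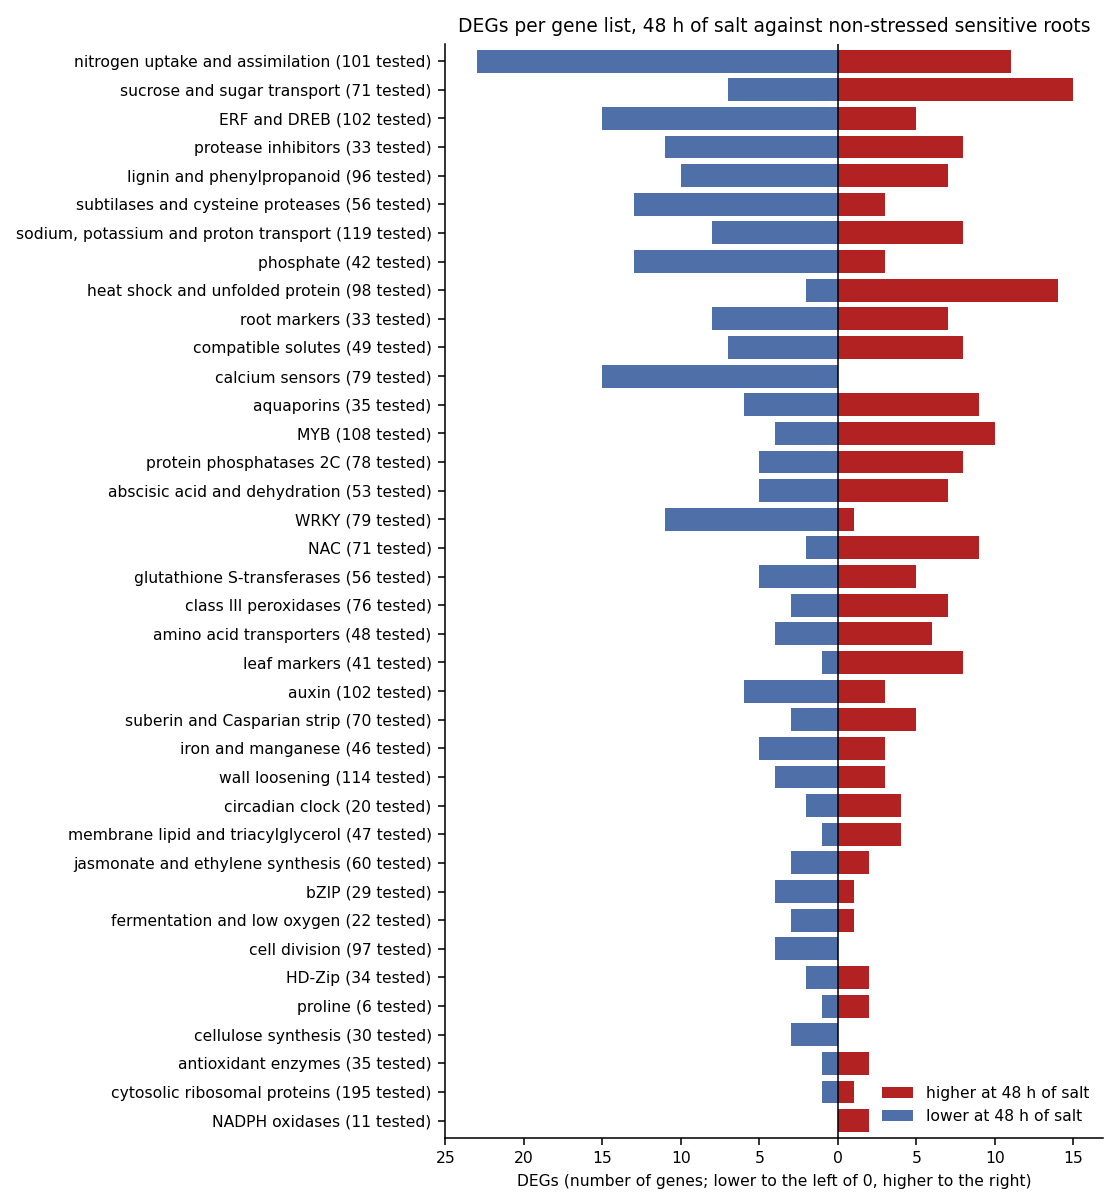
DEGs in each of 38 gene lists. Bars give the number of genes higher (right, red) and lower (left, blue) in 48 h salt roots than in non-stressed roots, with the number of tested genes of the list in parentheses. Nitrogen uptake (23 lower), calcium sensors (15 lower, 0 higher) and phosphate (13 lower) lean to the left, and sugar transport (15 higher) and heat shock (14 higher) to the right.

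The greatest falls were in genes that non-stressed library 1 held at low level. Of the 1156 fallen genes, 191 were under 25% of both other non-stressed libraries in library 1, and all of the 10 greatest falls were among them. Over the 191, the median FPKM was 0.06, 0.3 and 0.05 in libraries 1, 2 and 3 of 48 h salt roots, against 1.86, 21.1 and 19.9 in those of non-stressed roots. Library 1 still exceeded all 3 salt libraries at 174 of them. In non-stressed roots of the tolerant accession, 144 of the 191 were under 1 FPKM in all 3 libraries. Over the other root groups of either accession, the median of the group means ran from 0.0733 to 1.32 FPKM.

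Protease inhibitors led this group. The subtilisin inhibitor 1 gene emOS79.213 (chromosome 4, 46632089 to 46632334) was at 0, 2.24 and 0 FPKM in 48 h salt roots, against 87.8, 1267 and 1052 FPKM in non-stressed roots, a log2 fold change of -8.38 ± 1.24 (SE, limma adjusted p = 6.6e-06), the greatest fall of all. A run of genes of this kind, emOS79.210 to emOS79.214, emOS79.218 and emOS79.219, lies on chromosome 4, and all 7 fell. The subtilisin-chymotrypsin inhibitor CI-1C gene emOS79.218 was at 0, 0.72 and 0 FPKM in 48 h salt roots, against 26.8, 537 and 460.4 FPKM in non-stressed roots. In the list of protease inhibitors, 8 of 33 tested genes were higher and 11 lower. The risen ones included another run, emOS72.184 to emOS72.187, where emOS72.187 had 1244, 1580.2 and 1257 FPKM in 48 h salt roots, against 114, 123 and 171 FPKM in non-stressed roots (log2 fold change 3.33). Its neighbour emOS72.185 had a log2 fold change of 2.70, and 1.86 with an adjusted p of 0.119 without 48 h library 1. Among proteases of the subtilase and cysteine families, 3 of 56 tested genes were higher and 13 lower, and 1 rose without any 1 of the non-stressed libraries or without 48 h library 2. The subtilase SBT1.6, emFS22.193, was at 0, 0.22 and 0 FPKM in 48 h salt roots, against 9.09, 154 and 135 FPKM in non-stressed roots, a log2 fold change of -5.80 ± 0.80 (SE, limma adjusted p = 2.4e-06). The blue copper protein gene emFS27.519 had 0, 0.09 and 0 FPKM in 48 h salt roots, against 19.2, 357 and 286 FPKM in non-stressed roots (log2 fold change -6.95). The germin-like protein 9-3 gene emOS109.253, of a family of secreted proteins, had 0.15, 0.4 and 0 FPKM in 48 h salt roots, against 15.1, 419 and 337 FPKM in non-stressed roots (log2 fold change -6.81). Of 2 genes with a LysM domain, which binds chitin-type sugars, emFS18.1449 had 2.09, 2.86 and 1.24 FPKM in 48 h salt roots, against 36.6, 934 and 888 FPKM in non-stressed roots. The gene emFS18.1447 was listed at 0 in all 3 libraries of 48 h salt roots, against 16.4, 289 and 382 FPKM in non-stressed roots (adjusted p = 2.2e-08).

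Transporter and lipid genes were in the same group. Phosphate transporter 1-11, emFS4.2048, which in rice takes up phosphate delivered by mycorrhizal fungi, was at 0.58, 0.05 and 0.05 FPKM in 48 h salt roots, against 7.26, 105 and 88.3 FPKM in non-stressed roots, a log2 fold change of -5.15 ± 0.71 (SE, limma adjusted p = 2.3e-06). The ammonium transporter 3 member 1 gene emFS4.386, named after a rice gene, was at 0, 1.28 and 0.03 FPKM in 48 h salt roots, against 9.8, 172 and 143 FPKM in non-stressed roots (log2 fold change -5.60). In both, library 1 was the lowest non-stressed library and yet above all salt libraries. The glycerol-3-phosphate acyltransferase 6 gene emOS99.927, for an enzyme of lipid polyesters, had 0, 0.15 and 0 FPKM in 48 h salt roots, against 3.55, 54.5 and 48.8 FPKM in non-stressed roots (log2 fold change -4.47). A gene named for the ethylene-responsive factor WRI1, emFS4.1470, a regulator of fatty acid synthesis, had 0, 0.09 and 0 FPKM in 48 h salt roots, against 1.38, 19.4 and 19.9 FPKM in non-stressed roots (log2 fold change -3.29). The carotene isomerase D27 gene emFS10.38, for the first step to the strigolactone hormones, was picked after its values were seen and had 0.32, 0.75 and 0.41 FPKM in 48 h salt roots, against 8.74, 71.0 and 54.5 FPKM in non-stressed roots (log2 fold change -4.52). At the other times of salt, phosphate transporter 1-11 had 0.47, 1.92 and 2.36 FPKM at 8 h, 0.96, 0.02 and 10.8 FPKM at 12 h, 0.03, 0.58 and 0.14 FPKM at 24 h and 0.29, 3.0 and 1.06 FPKM at 5 days in sensitive roots, all below library 1 of the non-stressed roots except 1 library at 12 h.

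**Figure D4:**
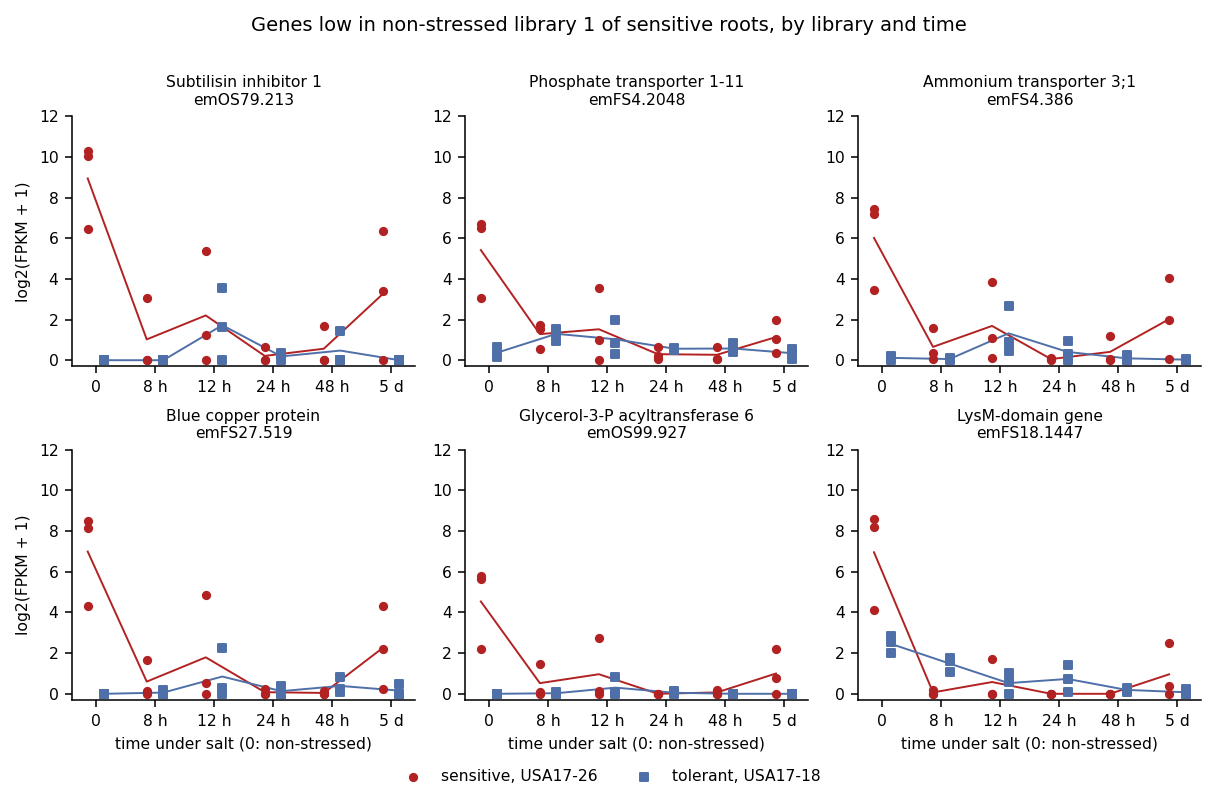
Time course of 6 genes that were low in non-stressed library 1. Points are the log2(FPKM + 1) of single root libraries of the sensitive (red circles) and the tolerant accession (blue squares), lines join the means of 3 libraries, and the time points from non-stressed (0) to 5 days are evenly spaced. The 3 non-stressed sensitive libraries spread widely, from 87.8 to 1267 FPKM for the subtilisin inhibitor. They stand above the 48 h salt libraries in each panel, as at 30.0% of all tested genes.

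The labelled tissue was checked on markers. Leaf photosynthesis genes summed to 551, 493 and 718 FPKM over 64 genes in 48 h salt roots and 516, 438 and 487 FPKM in non-stressed roots, against at least 3740 FPKM in any leaf library of the accession, and 16, 14 and 7 of the 64 were listed at 0 in 48 h salt roots, against 20, 23 and 25 in non-stressed roots. Of the 41 tested, 8 rose (5 without both non-stressed library 1 and 48 h library 3) and 1 fell, and the median log2 fold change was 1.00, above the -0.01 of all genes. The photosystem I subunit gene emOS99.641 had 6.35, 8.94 and 24.3 FPKM in 48 h salt roots, against 0.42, 0.58 and 0.45 FPKM in non-stressed roots (log2 fold change 3.05), with library 3 highest, and the chlorophyll-binding protein gene emFS18.299, picked after its values were seen, had 9.83, 2.49 and 85.5 FPKM in 48 h salt roots, against 1.29, 1.34 and 0.91 FPKM in non-stressed roots without passing the test (adjusted p = 0.072). Root marker genes summed to 5961, 6865 and 9672 FPKM in 48 h salt roots and 11600, 7371 and 9936 FPKM in non-stressed roots. Of 33 root markers tested, 7 rose (4 without non-stressed library 3 or 48 h library 2) and 8 fell, with a median of -0.85. The fallen ones were nitrate and silicon transporters named above and SCARECROW. Not all silicon transporters fell: emOS80.90 and emOS80.91, named for LSI2, rose by log2 fold changes of 1.58 and 1.54. Both calls were lost without non-stressed library 3 or 48 h library 2. Among the risen root markers, the cortical cell-delineating protein gene emOS114.514 had 935, 1385 and 4902 FPKM in 48 h salt roots, against 61.7, 210.3 and 80.9 FPKM in non-stressed roots (log2 fold change 4.17). A root-specific lectin gene, emOS52.23, had 129, 137 and 311 FPKM in 48 h salt roots, against 4.98, 2.47 and 3.08 FPKM in non-stressed roots (log2 fold change 5.34). In bulk roots, fewer cells of a type and less RNA per cell cannot be told apart, and the part of these markers in the results was not tested.

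Clock genes differed between the groups. The plant circadian clock is a loop in which MYB factors of the CCA1 and REVEILLE kind peak near dawn and act on genes that peak later in the day. CCA1, emOS184.45 (chromosome 7, 5080212 to 5097746), had 273, 209.6 and 205 FPKM in 48 h salt roots, against 7.53, 7.55 and 5.98 FPKM in non-stressed roots, a log2 fold change of 4.84 ± 0.29 (SE, limma adjusted p = 1.3e-12). REVEILLE 2, emFS4.266, had 153, 146 and 130.0 FPKM in 48 h salt roots, against 3.96, 3.6 and 3.3 FPKM in non-stressed roots (log2 fold change 4.96). The 2 clock genes that fell have names of genes that peak later. Adagio-like 3, emFS10.321, a blue-light receptor, had 6.0, 7.49 and 9.16 FPKM in 48 h salt roots, against 78.2, 91.3 and 84.2 FPKM in non-stressed roots (log2 fold change -3.34). The pseudo-response regulator PRR1, emOS174.810, had 10.1, 8.62 and 9.35 FPKM in 48 h salt roots, against 43.5, 50.0 and 42.5 FPKM in non-stressed roots (log2 fold change -2.16). GIGANTEA, emFS24.430, picked after its values were seen, was at 171, 167 and 164 FPKM in 48 h salt roots, against 422, 428 and 429 FPKM in non-stressed roots, a log2 fold change of -1.34 ± 0.15 (SE, limma adjusted p = 1.3e-07), under the fold threshold. Of 20 clock genes, 4 rose and 2 fell (4 without 48 h library 1). CCA1 had 2.63, 6.93 and 5.85 FPKM at 8 h, 1.31, 2.3 and 1.11 FPKM at 12 h, 129.6, 157 and 148 FPKM at 24 h and 223, 282 and 219.8 FPKM at 5 days of salt. Between 48 h and 24 h of salt, 0 of the 20 clock genes were DEGs, beside 0.257% higher and 0.410% lower over all tested genes. At such shares a list of 20 genes would hold few or no DEGs, so the 0 does not show equal levels. Without the fold threshold, 531 genes of all passed a limma adjusted p of 0.05 in that comparison. In tolerant roots CCA1 was at 318, 196 and 323 FPKM at 48 h and 0.94, 1.44 and 1.12 FPKM without salt. The hour of collection and salt cannot be told apart in the comparison with non-stressed roots, and the part of the clock genes in the other results was not tested.

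**Figure D5:**
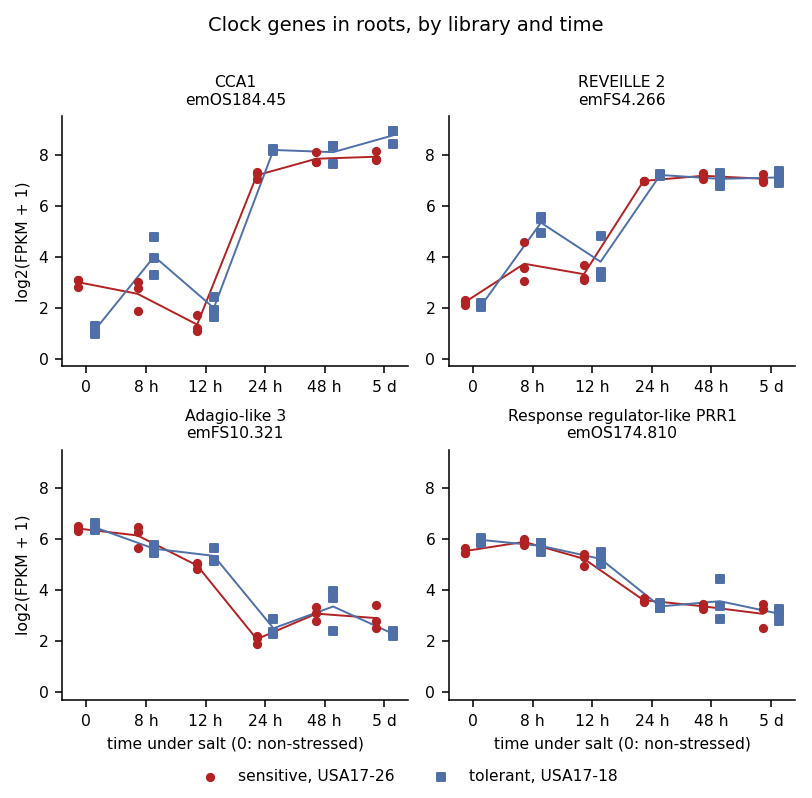
Time course of 4 clock genes in roots. Points are the log2(FPKM + 1) of single libraries of the sensitive (red circles) and the tolerant accession (blue squares), lines join the means of 3 libraries, and the time points from non-stressed (0) to 5 days are evenly spaced. CCA1 and REVEILLE 2 are high and Adagio-like 3 and PRR1 low at 24 h, 48 h and 5 days, with the opposite order in non-stressed roots.

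The salt response of sensitive roots was set against that of tolerant roots at the same time. In roots of USA17-18, 966 genes were higher and 1196 lower at 48 h. The accessions share no library, and 636 genes were DEGs with a rise in both, 69.0% of those in sensitive and 65.8% of those in tolerant roots. Falls in both came to 604 genes, 52.2% and 50.5%, and 1 gene was a DEG in opposite directions. The difference of the responses, sensitive minus tolerant, was itself tested, and 38 genes (0.171%) had a more positive and 131 (0.590%) a more negative response in sensitive roots. These 169 DEGs rest on few libraries: 62 were found without non-stressed sensitive library 3, 67 without library 2 and 249 without library 1. They numbered 105 without non-stressed tolerant library 1 and 111 without 48 h tolerant library 3. With only the libraries compared, 56 were more positive and 59 more negative.

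The more negative responses were mostly those of the genes low in non-stressed library 1, which hold 104 of the 131 and all of the 10 greatest. For the subtilisin inhibitor emOS79.213, tolerant roots had 0, 0 and 1.68 FPKM at 48 h and were listed at 0 in all 3 libraries without salt. Phosphate transporter 1-11, emFS4.2048, had 0.78, 0.41 and 0.32 FPKM in 48 h salt roots of the tolerant accession and 0.12, 0.56 and 0.25 FPKM in its non-stressed roots, a difference of the responses of -5.35 ± 1.00 (SE, limma adjusted p = 0.0045). The blue copper protein emFS27.519 had 0.76, 0.07 and 0.19 FPKM at 48 h and was listed at 0 in all 3 libraries without salt in tolerant roots. Non-stressed sensitive roots were the highest group for each of the 3 genes. Among the lists, 10 of 33 protease inhibitors had a more negative response, beside 0.590% of all tested genes. Aquaporins, protein phosphatases 2C, heat shock, WRKY, NAC, calcium sensor and sugar transport genes had 0 DEGs in either direction. With 0.171% of all genes more positive and 0.590% more negative, lists of their size would hold few or no DEGs. The 0 therefore does not show that the accessions responded alike. Of all genes, 1931 had an unadjusted limma p under 0.05 in this comparison.

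More positive responses came from genes that fell less, or rose more, in sensitive roots. The gene emFS1.1 was of another kind, near 0 in sensitive roots with and without salt, and fell in tolerant roots. SAUR40, emOS99.637, fell further in tolerant roots, to 1.14, 4.16 and 8.17 FPKM at 48 h, against 463, 491 and 516 FPKM without salt, and the responses differed by 2.53 ± 0.58 (SE, limma adjusted p = 0.026). Leaving out any 1 of 7 libraries ended this call, at adjusted p-values of 0.06 to 0.125: non-stressed tolerant library 1, 2 or 3, 48 h tolerant library 1, non-stressed sensitive library 2 or 3, and 48 h sensitive library 1. The urea transporter DUR3, emOS49.280, picked after its values were seen, had 9.54, 6.47 and 5.04 FPKM in 48 h salt roots, against 65.4, 41.5 and 58.9 FPKM in non-stressed roots in the sensitive accession and 0.97, 2.58 and 1.55 FPKM at 48 h and 79.7, 79.5 and 75.1 FPKM without salt in the tolerant one, a difference of 2.09 ± 0.39 (SE, limma adjusted p = 0.0045). NAR2.1, emOS144.161, the partner protein that high-affinity nitrate transporters need, was also picked so and had 3494, 2953 and 1721 FPKM in 48 h salt roots, against 6849.5, 3953 and 6027 FPKM in non-stressed roots in the sensitive accession. In the tolerant accession it had 730.1, 964 and 377 FPKM at 48 h and 5862, 6863 and 7204 FPKM without salt, and the difference of 2.3 ± 0.54 (SE, limma adjusted p = 0.03) was not called when any 1 of 8 libraries was left out, at adjusted p-values of 0.0593 to 0.138. These were non-stressed tolerant libraries 1 to 3, 48 h tolerant library 3, non-stressed sensitive libraries 2 and 3, and 48 h sensitive libraries 1 and 2. The gene emOS63.26, with a domain of the NADH-ubiquinone reductase MLRQ subunit, rose in sensitive roots, with 44.2, 24.4 and 22.3 FPKM in 48 h salt roots, against 2.53, 1.94 and 1.66 FPKM in non-stressed roots. It had 7.43, 6.09 and 2.14 FPKM at 48 h and 8.16, 4.64 and 8.59 FPKM without salt in tolerant roots, and the difference of 3.77 ± 0.90 (SE, limma adjusted p = 0.033) was not called when any 1 of 9 libraries was left out, at adjusted p-values of 0.0504 to 0.116. These were non-stressed tolerant libraries 1 and 3, 48 h tolerant libraries 2 and 3, non-stressed sensitive libraries 2 and 3, and all 3 of the 48 h sensitive libraries. The O-methyltransferase gene emFS1.1 was listed at 0 in all 3 libraries of 48 h salt roots and had 0.14, 0.08 and 0.14 FPKM without salt in the sensitive accession. In tolerant roots it fell to 0.13, 0.67 and 0.23 FPKM at 48 h, against 9.47, 9.24 and 15.8 FPKM without salt, and the adjusted p of the difference was 1.2e-05.

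Sensitive roots at 48 h were also compared with those at 24 h of salt. The 2 times share no library, and 57 genes were higher (0.257%) and 91 lower (0.410%) at 48 h, with a median log2 fold change of 0.15 over all genes. Scaling by median ratios took this median to 0.02 and gave 38 higher and 116 lower. The count of 148 was not stable, at 9 without 24 h library 1, 22 without 24 h library 3, 30 without 48 h library 3 and 49 without 48 h library 2. Of the 20 genes with the greatest differences that the text could name, 3 kept their call whichever library was left out. Both NRT2.2 genes were among the 3: emOS79.107 had 48.7, 22.3 and 7.25 FPKM at 48 h, against 469, 141 and 523 FPKM at 24 h, a log2 difference of -3.95 ± 0.55 (SE, limma adjusted p = 0.00041). The gene emOS79.101 had 57.5, 17.4 and 7.23 FPKM at 48 h, against 499, 124 and 498 FPKM at 24 h (-3.93). The 24 h values overlapped those of non-stressed roots, 559, 284 and 479.8 FPKM for emOS79.107. The other was emOS113.6, a gene with a fusaric acid resistance domain, at 6.7, 1.5 and 2.08 FPKM at 48 h, against 99.3, 34.6 and 60.3 FPKM at 24 h and 77.7, 73.3 and 65.9 FPKM without salt.

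Genes named for a galactinol synthase, an oil body-associated protein and a LEA protein were lower at 48 h than at 24 h. Every 48 h library of these genes was above every non-stressed one, as at 28.0% of all tested genes. Galactinol synthase 2, emFS4.2045, had 8.26, 13.2 and 4.41 FPKM at 48 h, against 286, 77.2 and 154 FPKM at 24 h, a log2 difference of -4.08 ± 0.99 (SE, limma adjusted p = 0.026). Its 48 h rise over non-stressed roots (log2 fold change 2.80, limma adjusted p = 0.0299) depended on single libraries. That rise was not called without any 1 of the non-stressed libraries or without 48 h library 1 or 2 (adjusted p = 0.0644 to 0.109). The oil body-associated protein 1A gene emOS174.459 had 12.3, 20.5 and 4.67 FPKM at 48 h, against 176, 154 and 117 FPKM at 24 h (-3.65). LEA protein 18, emOS140.315, had 0.41, 3.06 and 0.07 FPKM at 48 h, against 25.2, 16.5 and 14.6 FPKM at 24 h (-3.40), and was listed at 0 in all 3 libraries of non-stressed roots. A sugar transporter and a chitinase gene were among the higher ones. SWEET14, emOS104.7, had 20.1, 35.1 and 60.3 FPKM at 48 h, against 0.29, 5.26 and 1.12 FPKM at 24 h (3.81). Chitinase 9, emFS27.13, whose kind cuts fungal wall chitin, had 23.0, 56.1 and 277 FPKM at 48 h, against 2.1, 13.3 and 2.44 FPKM at 24 h (3.76). Each of these 5 calls between 48 h and 24 h was lost without 24 h library 1 and without 48 h library 3, at adjusted p-values of 0.0567 to 0.259. Of the 5, 4 were also lost without 24 h library 3, 3 without 48 h library 2, 2 without 48 h library 1 and 1 without 24 h library 2. In the lists, 8 of 101 nitrogen genes were lower at 48 h and 1 higher, and 6 of 53 ABA and dehydration genes were lower and 0 higher. Of 71 sugar genes, 5 were higher and 1 lower. Over all genes the shares were 0.410% lower and 0.257% higher. These list counts were not tested with single libraries left out, which moved the count of all DEGs from 148 to as few as 9.

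The last comparison was with leaves of the same accession. Leaves had 1127 higher and 1004 lower genes at 48 h of salt against non-stressed leaves. Roots and leaves share no library, and 400 rises were shared, 43.4% of those in roots and 35.5% of those in leaves, as were 192 falls, 16.6% and 19.1%, while 44 DEGs went in opposite directions. The difference of the responses, root minus leaf, was tested on 23205 genes over the 36 libraries of the accession, and 666 (2.87%) were more positive and 1010 (4.35%) more negative in roots. The median difference was 0.23, and -0.004 after median-ratio scaling, which gave 422 more positive and 1209 more negative. All of the 20 named genes with the greatest differences kept their call whichever library was left out.

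SWEET12, emOS55.1103, which rose in roots, had 0.17, 1.1 and 3.03 FPKM in 48 h salt leaves and 0, 0.05 and 0 FPKM in non-stressed leaves, and the responses differed by 5.91 ± 0.76 (SE, limma adjusted p = 4.7e-06). The pathogenesis-related protein 1 gene emFS27.292 had 279.5, 178 and 113 FPKM in 48 h salt roots, against 6.99, 9.75 and 8.68 FPKM in non-stressed roots, with 2.54, 1.67 and 1.61 FPKM in salt-treated and 8.59, 52.2 and 1.92 FPKM in non-stressed leaves (6.22). The cortical cell-delineating protein gene emOS114.513 had 207, 337 and 888 FPKM in 48 h salt roots, against 1.6, 22.4 and 6.24 FPKM in non-stressed roots, with 0.39, 0.12 and 0.03 FPKM in salt-treated and 4.49, 0.72 and 0.78 FPKM in non-stressed leaves (6.84). Its rise in roots was not called without both non-stressed library 1 and 48 h library 3 (log2 fold change 4.35, adjusted p = 0.0924). The metallothionein-like gene emFS24.155 was high in leaves, at 1066, 1672 and 1264 FPKM with and 504, 548 and 1031 FPKM without salt, and rose in roots only to that level. More negative responses included those of genes low in non-stressed library 1 of sensitive roots, such as the subtilisin inhibitor emOS79.213 (-8.38). Over the 191 fallen genes low in that library, the median of the group means was 0.0467 FPKM in salt-treated and in non-stressed leaves. Other more negative responses came from genes that rose in leaves. The early light-inducible protein HV90 gene emFS27.607, which protects plastids in light, had 1.56, 2.45 and 0.23 FPKM in 48 h salt roots, against 0, 0.19 and 0.1 FPKM in non-stressed roots. It had 1239.6, 1398 and 2532 FPKM in salt-treated leaves, against 0.15, 0.44 and 11.2 FPKM in non-stressed leaves, a difference of -8.22 ± 0.89 (SE, limma adjusted p = 3.1e-07). The chloroplastic 26.7 kDa heat shock gene emOS55.430 had 2.38, 3.92 and 7.11 FPKM in 48 h salt roots and was listed at 0 in all 3 libraries of non-stressed roots, against 80.1, 3222 and 7741 FPKM in salt-treated and 0.55, 0.24 and 2.94 FPKM in non-stressed leaves (adjusted p = 0.0035). Of 98 heat shock and folding genes, 2 had a more positive and 20 a more negative response in roots, a median of -0.43 beside 0.23 over all genes. Of 79 calcium sensors, 0 were more positive and 13 more negative. Over all genes the shares were 2.87% more positive and 4.35% more negative. Ribosomal protein genes had a median difference of 0.82 with 2 more positive and 1 more negative of 194, and the responses of 10 of 100 cell division genes were more positive in roots and 0 more negative. Within roots, 0 of 97 tested cell division genes were higher at 48 h of salt and 4 were lower, with a median of 0.01. The more positive differences of this list therefore do not stand for called rises in roots.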

How the data were processed

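RNA-seq of Paspalum vaginatum roots and leaves gave 1 deposited table of FPKM values for 72 libraries. Per the labels and the study's methods, the authors trimmed reads (Trimmomatic 0.32) and aligned them (HISAT2 2.1.0, both from the submitters' processing notes), and they deposited FPKM per gene and library, a unit that the methods call RPKM. No source used here names the genome build, the counting tool or the strand setting. The depth in reads is unknown, so libraries were compared by what 1 read was worth in the deposited FPKM of 156 low genes.

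Groups came from the labels. limma 3.58.1 (R 4.3.3, trended variance) was fitted to log2(FPKM + 1) with 12 groups, over the 36 root libraries, or over the 36 libraries of the sensitive accession for roots against leaves. Genes had to reach 1 FPKM in at least 3 libraries of the fit. DEGs had a Benjamini-Hochberg adjusted p up to 0.05 and a log2 fold change of 1.5 or more, the thresholds of the study, whose count-based test could not be used on FPKM. The code was tested on simulated data. Tables and plots used Python 3.11.15, pandas 2.3.3, numpy 2.4.6 and matplotlib 3.10.9.

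The 38 gene lists were made from words in the deposited gene names. The members were taken by their labels alone, but earlier results of these data were known when they, the comparisons and the lists were chosen. In each comparison the text could name the 10 greatest rises and falls among DEGs whose libraries did not overlap between the groups (48 h against non-stressed sensitive roots for differences between accessions or tissues), and up to 4 DEGs per list and direction. Further DEGs of the lists, and the genes said to be picked so, were named after their values were seen. Alternatives were other pseudocounts, filters, scalings and fold thresholds, fits on fewer libraries, a replicate block and leaving out libraries. The labels do not say whether the numbers pair libraries. Same-numbered libraries of 48 h salt and non-stressed sensitive roots had deviations that correlated at 0.095, 0.024 and -0.252. Differently numbered ones correlated at -0.197 to 0.207. Deviations from means of 3 libraries cannot decide whether the numbers stand for a shared container or day. No sequences were used.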

Additional observations from a re-analysis of the deposited data

Results flagged for a closer look

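The values in this section are differences between 2 responses on the log2(FPKM + 1) scale, each tested in limma. Where a group was listed at 0 in every library they are not fold changes. No explanation was tested for any of them.

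In roots, the 48 h response of the sensitive accession was more positive than that of the tolerant accession by 4.4 for the O-methyltransferase gene emFS21.139. The difference was 4.11 for emOS91.152, 3.46 for emFS4.1499 and 3.06 for emFS1.60, none of which has a protein name in the deposited table, and 3.77 for emOS63.26. It was 3.04 for the O-methyltransferase gene emFS1.1, 2.9 for the subtilase gene emFS18.918, 2.79 for the galactosyltransferase gene emFS4.1861, 2.6 for the disease resistance gene emOS79.911 and 2.53 for SAUR40, emOS99.637. Nitrogen transport genes picked after their values were seen gave 2.3 for NAR2.1, emOS144.161, 2.09 for DUR3, emOS49.280, and 2.08 for the ammonium transporter 1 member 1 gene emFS22.531.

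The sensitive response was more negative by -8.85 for the subtilisin inhibitor emOS79.213, -8.21 for emFS18.616 with a domain of unknown function, -7.34 for the blue copper protein emFS27.519 and -7.31 for the inhibitor emOS79.218. The inhibitor emOS164.211 gave -6.93, the germin-like gene emOS109.253 gave -6.84, and the thionin-family gene emOS79.467 and the LysM gene emFS18.1449 each gave -6.22. The serine carboxypeptidase gene emOS91.257 gave -6.15 and the inhibitor-family gene emFS21.511 gave -6.01. All 10 were low in non-stressed library 1 of sensitive roots. Leaving out single libraries ended the calls of 8 of these 23 genes. Besides SAUR40, NAR2.1 and emOS63.26, these were emFS18.918 (adjusted p of 0.0505 to 0.146 without 1 of 10 libraries), emFS18.1449 (0.0566 to 0.153, also 10), emOS79.218 and emFS21.511 (0.0721 to 0.0753 without non-stressed sensitive library 2 or 3) and emFS22.531 (0.0528 to 0.0793 without 1 of 3 libraries).

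In the sensitive accession, the root response was more positive than the leaf response by 7.19 for emOS91.1597 with a phosphoglucomutase domain, 6.84 for the cortical cell-delineating gene emOS114.513, 6.22 for the pathogenesis-related gene emFS27.292 and 6.08 for the chaperonin-like RBCX gene emOS181.330. The difference was 5.91 for SWEET12, emOS55.1103, 5.89 for emFS4.256, 5.78 for emOS120.135 with a carbohydrate-binding domain, 5.63 for the unnamed emFS24.9, 5.49 for the chloroplastic dnaJ gene emFS6.390 and 5.34 for the metallothionein-like gene emFS24.155.

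The root response was more negative by -8.38 for the subtilisin inhibitor emOS79.213, -8.22 for the early light-inducible gene emFS27.607, -7.93 for the transposon-derived gene emFS24.476, -7.71 for emFS18.616 and -7.38 for the LysM gene emFS18.1449. The inhibitor emOS79.218 gave -7.31, the heat shock gene emOS55.430 gave -6.97, the LysM gene emFS18.1447 gave -6.96, the blue copper protein emFS27.519 gave -6.9 and the germin-like gene emOS109.253 gave -6.81. Except for emFS27.607, emFS24.476 and emOS55.430, these are among the 10 greatest falls in sensitive roots, all low in non-stressed library 1. Over the 191 fallen genes low in that library, the median of the group means was 0.0467 FPKM in leaves with and without salt.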

How the results depend on the processing

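The FPKM carry no read counts, so counting error per gene is unknown, and 3 libraries a group limit what could be detected. Over all alternatives run, 0 of the differences of the genes that the text could name reversed. The 2078 DEGs of the salt response came to 1110 with a pseudocount of 5 FPKM, 3107 with 0.1 FPKM and 3619 at a log2 fold threshold of 1, and genes with a mean of at least 5 FPKM gave 830 higher and 670 lower, a share of 55.3% higher against 44.4%. Leaving out 1 library gave 1925 to 2161, and leaving out both non-stressed library 1 and 48 h library 3, chosen after the data were seen, 1914. Of the 263 genes that the text could name for this comparison, 225 kept their call whichever library was left out. Most were chosen for large changes in these same data, so the count does not measure how stable the other DEGs are. The 169 DEGs between accessions came to 94 with a pseudocount of 0.1 FPKM and 38 among genes with a mean of at least 5 FPKM, and ranged from 62 to 249 with 1 library left out. With only the libraries compared, 48.7% were more positive, against 22.5%. The 148 DEGs between 48 h and 24 h came to 246 and 93 with pseudocounts of 0.1 and 5 FPKM, with 57.3% and 21.5% higher against 38.5%, to 300 at the threshold of 1 (48%) and to 235 with only the libraries compared. They ranged from 9 to 222 with 1 library left out. The 1676 DEGs between root and leaf came to 1061 with a pseudocount of 5 FPKM. They ranged from 1323 to 2324, the highest without non-stressed leaf library 3, where 54.8% were more positive, against 39.7%. The cause of these changes was not tested, except that the threshold of 1 and the filter change which genes can be counted. With the replicate block, the counts were 2069, 161, 130 and 1690, and 319 of 326 values of genes that the text could name kept their call. The labels do not say whether same-numbered libraries share more than a number.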

Other observations

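Genes of the root's water-proofing layers changed in both directions. Suberin is the lipid polyester laid down around the endodermis, and CASP-like proteins belong to the family that sets the Casparian strip. Among the suberin and Casparian strip genes, 5 of 70 tested genes were higher and 3 lower, and 4 of the risen ones are named for CASP-like proteins or a wax-type ketoacyl-CoA synthase. The CASP-like 2U1 gene emFS12.12 had 8.68, 17.5 and 34.1 FPKM in 48 h salt roots, against 1.58, 1.03 and 0.75 FPKM in non-stressed roots (log2 fold change 3.14). The CASP-like 5C1 gene emOS99.701 had 52.4, 61.2 and 40.9 FPKM in 48 h salt roots, against 7.51, 7.33 and 9.39 FPKM in non-stressed roots (log2 fold change 2.52). The omega-hydroxypalmitate O-feruloyl transferase gene emOS120.541, for the enzyme that adds ferulate to suberin, had 1.33, 0.99 and 0.54 FPKM in 48 h salt roots, against 7.2, 4.06 and 7.66 FPKM in non-stressed roots (log2 fold change -1.88). In the lignin and phenylpropanoid list, 7 of 96 tested genes were higher and 10 lower, and 4 rose without 48 h library 2 and 3 without both non-stressed library 1 and 48 h library 3. Dirigent proteins guide the coupling of lignin-type monomers, and dirigent protein 5, emOS91.1870, had 3.93, 1.02 and 0.82 FPKM in 48 h salt roots, against 56.8, 36.4 and 55.4 FPKM in non-stressed roots, a log2 fold change of -4.24 ± 0.35 (SE, limma adjusted p = 5.3e-10). The neighbours emOS79.723 and emOS79.724, both named for a probable cinnamyl alcohol dehydrogenase, rose by log2 fold changes of 2.00 and 2.05, and the first had 1042, 1258 and 1507 FPKM in 48 h salt roots, against 323, 377 and 252 FPKM in non-stressed roots.

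The bZIP and HD-Zip transcription factors were counted too. Among bZIP genes, 1 of 29 tested genes were higher and 4 lower. The bZIP transcription factor 2 gene emOS55.854 had 46.4, 53.2 and 26.8 FPKM in 48 h salt roots, against 234, 225 and 250.1 FPKM in non-stressed roots (log2 fold change -2.52), and bZIP 50, emOS105.330, in rice a regulator of the endoplasmic reticulum stress response, had 63.6, 73.6 and 57.1 FPKM in 48 h salt roots, against 237, 244 and 226 FPKM in non-stressed roots (log2 fold change -1.85). The risen bZIP gene, HBP-1a, emOS169.184, had 7.07, 6.51 and 2.71 FPKM in 48 h salt roots, against 0, 0 and 0.04 FPKM in non-stressed roots, and its call was lost without 48 h library 1 (adjusted p = 0.06) or library 2 (adjusted p = 0.0599). Among HD-Zip genes, 2 of 34 tested genes were higher and 2 lower. Without 48 h library 1, 4 rose and 1 fell, without 48 h library 2, 1 fell, and without non-stressed library 2, 0 fell. Of these genes, HOX25, emOS86.211, had 555, 585 and 448 FPKM in 48 h salt roots, against 140.3, 79.8 and 139.7 FPKM in non-stressed roots (log2 fold change 2.17). In the fermentation and low oxygen list, 1 of 22 tested genes were higher and 3 lower, and 1 fell without 48 h library 3. Plant cysteine oxidase 1, emOS99.1416, of the enzymes that sense oxygen, had 0.18, 0.05 and 0.2 FPKM in 48 h salt roots, against 6.67, 7.05 and 5.22 FPKM in non-stressed roots (log2 fold change -2.67). Alcohol dehydrogenase 1, emFS21.528, the last enzyme of ethanol fermentation, had 84.6, 188 and 249 FPKM in 48 h salt roots, against 25.5, 25.4 and 25.3 FPKM in non-stressed roots, and its call was lost without 48 h library 2 (adjusted p = 0.059) or library 3 (adjusted p = 0.0795).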
